A study of Mus musculus with 9 samples.

Results

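The genes flanking the Hoxa cluster were the 10 annotated genes Nfe2l3, Hnrnpa2b1, Cbx3, Snx10, Skap2, Halr1, Evx1, Hibadh, Tax1bp1 and Jazf1, out of 37980 genes in the table. They were chosen by name and position, to see how far the difference in Hoxa expression between NUP98-HOXA10hd and wild-type progenitors reached along chromosome 6, with results of that same contrast already known. Their values between the groups are therefore given as a description, with a fold change and its error. Where one of them is said to pass the threshold of the fit over all genes, that too is a description, since the genes were chosen on this contrast, and it supports nothing. Of the 10 genes, 8 had at least 1 read and 6 passed the expression filter, which left 11953 genes tested in all.

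The samples were myeloid progenitors (MPs, Lin-ckit+Sca1-) from mouse bone marrow, measured by polyA RNA sequencing, with 100000 sorted cells per sample. The 4 NA MP samples were Tdtomato+ donor cells from adult irradiated C57BL/6 mice given multipotent progenitors (MPPs) of NA LSL/+; Vav-Cre donors, in which Vav-Cre switches on the Nup98-Hoxa10hd fusion gene (NA) in blood cells from the Rosa26 locus. The 5 WT MP samples were CD45.2+ cells from irradiated mice given WT MPPs. The labels place both sorts 3 months after transplantation, whereas the study's methods give a later time. The recipients were also described as CD45.2+, so that marker alone does not separate WT donor cells from host or helper cells. Figure legends of the study mark donor cells by Tdtomato or by the other form of that marker, not by CD45.2. Whether the WT MP samples descend from the WT MPPs given could therefore not be settled. No label says whether a sample came from 1 mouse or several. Differences between replicates may thus be technical or biological. The Rosa26 locus lies on chromosome 6 as well, 60.8 Mb from the Hoxa cluster.

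Hox genes encode homeodomain transcription factors and stand in clusters whose order follows their use along the body axis. In blood, Hoxa9 and Hoxa10 are active in stem cells and early progenitors and are switched off as cells mature. The Hoxa cluster sits between neighbouring chromatin domains. The genes beyond either end mostly have unrelated housekeeping or tissue-specific roles, and some of the intervals between them hold enhancers of the Hoxa genes themselves.

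Positions are in GRCm38 coordinates (GENCODE M21), with distances from the nearer end of the cluster on chromosome 6. On one side, called the Skap2 side here, lay Halr1 at 41.9 kb (chr6:52102949-52113684), Skap2 at 143.0 kb (chr6:51857422-52012549), Snx10 at 564.9 kb (chr6:51523901-51590679), Cbx3 at 671.9 kb (chr6:51470360-51483704), Hnrnpa2b1 at 685.7 kb (chr6:51460932-51469894) and Nfe2l3 at 696.8 kb (chr6:51432670-51458768). On the other, called the Hibadh side, lay Evx1 at 52.6 kb (chr6:52313498-52318378), Hibadh at 285.3 kb (chr6:52546228-52640389), Tax1bp1 at 452.8 kb (chr6:52713729-52766780) and Jazf1 at 507.9 kb (chr6:52768797-53068631). Halr1 is a long non-coding RNA and the other 9 genes code for proteins. The table held 2 further genes between Skap2 and the cluster, with 0 reads in all 9 libraries, and 4 between the cluster and Hibadh, of which 1 had a single read. Skap2 and Hibadh were therefore the nearest tested genes on either side of the cluster.

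RefSeq promoters of 4 genes on the Skap2 side and 1 on the Hibadh side are shown because they belong to the gene with the largest fold change, to the pair of divergent genes at the far end, and to genes with few or no reads. Each run covers 250 bases before and 50 bases after the RefSeq start in GRCm38.p6, on the gene's own strand, with CG dinucleotides in capitals. The window of Skap2 was chr6:52012500-52012799 (minus strand), that of Hnrnpa2b1 chr6:51469845-51470144 (minus) and that of Cbx3 chr6:51470366-51470665 (plus). Those of Halr1 and Jazf1 were chr6:52102699-52102998 (plus) and chr6:53068575-53068874 (minus).
Skap2: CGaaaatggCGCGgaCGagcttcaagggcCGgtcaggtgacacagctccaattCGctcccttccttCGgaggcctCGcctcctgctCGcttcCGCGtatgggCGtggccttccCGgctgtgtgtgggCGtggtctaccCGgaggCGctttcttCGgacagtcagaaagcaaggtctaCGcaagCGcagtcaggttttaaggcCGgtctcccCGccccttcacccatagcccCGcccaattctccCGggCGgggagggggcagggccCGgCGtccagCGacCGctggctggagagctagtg
Hnrnpa2b1: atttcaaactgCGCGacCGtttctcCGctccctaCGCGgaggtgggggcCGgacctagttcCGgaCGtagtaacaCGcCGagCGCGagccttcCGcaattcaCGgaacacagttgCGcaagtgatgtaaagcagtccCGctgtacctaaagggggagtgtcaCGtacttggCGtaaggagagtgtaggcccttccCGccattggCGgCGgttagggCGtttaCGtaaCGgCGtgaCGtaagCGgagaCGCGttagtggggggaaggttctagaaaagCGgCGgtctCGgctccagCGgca
Cbx3: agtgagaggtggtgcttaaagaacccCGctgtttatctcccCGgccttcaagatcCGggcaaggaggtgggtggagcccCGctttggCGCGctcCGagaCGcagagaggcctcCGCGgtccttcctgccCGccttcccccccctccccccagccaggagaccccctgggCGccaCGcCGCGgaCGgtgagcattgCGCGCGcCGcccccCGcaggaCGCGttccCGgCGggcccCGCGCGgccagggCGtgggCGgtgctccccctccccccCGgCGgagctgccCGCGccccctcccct
Halr1: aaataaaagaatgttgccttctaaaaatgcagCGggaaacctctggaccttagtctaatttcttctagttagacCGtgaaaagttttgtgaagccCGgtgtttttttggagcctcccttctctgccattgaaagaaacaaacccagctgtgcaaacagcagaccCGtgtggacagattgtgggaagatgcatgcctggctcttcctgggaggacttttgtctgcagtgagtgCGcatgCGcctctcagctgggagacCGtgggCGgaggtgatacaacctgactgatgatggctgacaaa
Jazf1: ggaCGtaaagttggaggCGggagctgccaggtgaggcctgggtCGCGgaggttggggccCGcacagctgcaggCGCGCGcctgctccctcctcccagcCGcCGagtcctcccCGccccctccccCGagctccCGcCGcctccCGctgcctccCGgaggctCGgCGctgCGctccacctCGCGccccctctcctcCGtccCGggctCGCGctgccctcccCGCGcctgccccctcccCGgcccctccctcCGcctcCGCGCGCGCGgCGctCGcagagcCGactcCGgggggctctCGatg
The Skap2 promoter held 28 CG dinucleotides, the Hnrnpa2b1 and Cbx3 promoters 34 each, and the Jazf1 promoter 39, against a median of 7 over 32851 RefSeq mouse promoters of the same length. The Halr1 promoter held 8 and lay near that median. The gene starts of Hnrnpa2b1 and Cbx3 in GENCODE stood 465 bases apart and pointed away from each other, and the RefSeq start used for Cbx3 lay 256 bases further into the gene.

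The promoters of all 10 genes matched an entry in the RefSeq table. CG dinucleotides numbered 7 in Nfe2l3, 12 in Evx1, 16 in Tax1bp1, 20 in Snx10 and 28 in Hibadh, so the promoters of the 6 genes that passed the filter held 16 to 34 and those of the 4 that did not held 7 to 39. Motifs were searched on both strands. TATAAA was found in 1 of the 10 promoters, that of Nfe2l3, and in 13.6% of all promoters. CCAAT was found in 4, those of Hnrnpa2b1, Snx10, Skap2 and Hibadh, and in 37.4% of all promoters. TGATTNAT, the shared motif of Hox and Pbx proteins, was found in 0 of the 10 and in 3.22% of all promoters. No promoter of the 10 held more than 1 kind of these motifs, and that of Skap2 held CCAAT at 2 places. A match describes the letters in these windows only, as does the lack of one.

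The labels were checked on the 2 genes the fusion joins. Nup98 stood at 960 ± 82.7 normalised counts (SD, n = 4) in NA MPs and 599 ± 29.9 (n = 5) in WT MPs, and Hoxa10 at 129 ± 17.8 and 8.05 ± 2.57. Reads of the fusion and of the endogenous genes cannot be told apart in these counts. The libraries held 5557718 to 8106140 reads, and no library stood for a duplicate of another. The groups differed in more than the fusion: summed CPM of 12 pro-B and pre-B markers ran from 212 to 377 in NA MPs and from 54.8 to 59.8 in WT MPs, with 11 of 11 tested higher. Of 6 mast cell and basophil markers 5 were higher (590 to 702 against 386 to 401 CPM), 7 of 8 tested erythroid markers were lower (506 to 648 against 951 to 1086), and all 8 tested immediate early genes were higher (1790 to 3877 against 363 to 810). Megakaryocyte markers summed to 208 to 239 against 206 to 230 CPM, and neutrophil markers to 506 to 789 against 418 to 498. The 8 markers of myeloid progenitors summed to 22450 to 24659 and 21946 to 22902 CPM, Ly6a, which encodes Sca1, lay at 2.59 to 3.49 and 1.84 to 3.46 CPM, Cd3e and Cd3g were at 0 reads, and stromal markers reached at most 2.9 and 1.53 CPM. The part of these differences in the values of the flanking genes was not tested. In bulk RNA, fewer cells of a type and less RNA per cell cannot be told apart.

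Between NA MPs and WT MPs the flanking genes differed little beside the Hoxa genes they surround. Skap2 was 33.2% higher in NA MPs, Snx10 and Tax1bp1 were 10.7% and 9.88% higher, Hnrnpa2b1 was lower (a change of -6.84%), and Cbx3 and Hibadh differed by 1.71% and 0.026%. Of the 6 tested genes 4 passed the threshold of an adjusted p of 0.05 (edgeR quasi-likelihood fit, with p adjusted by Benjamini-Hochberg across the 11953 genes), where 34.1% of all genes did. Of the 6, 3 passed it with a higher level in NA MPs and 1 with a lower level, where 17.9% and 16.3% of all tested genes did. The median log2 fold change was 0.08 over the 6 genes and -0.001 over all genes. None of the 6 changed more than 2-fold, which 4.14% of all genes did. With these genes picked in view of the contrast, nothing is read from the counts.

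**Figure D1:**
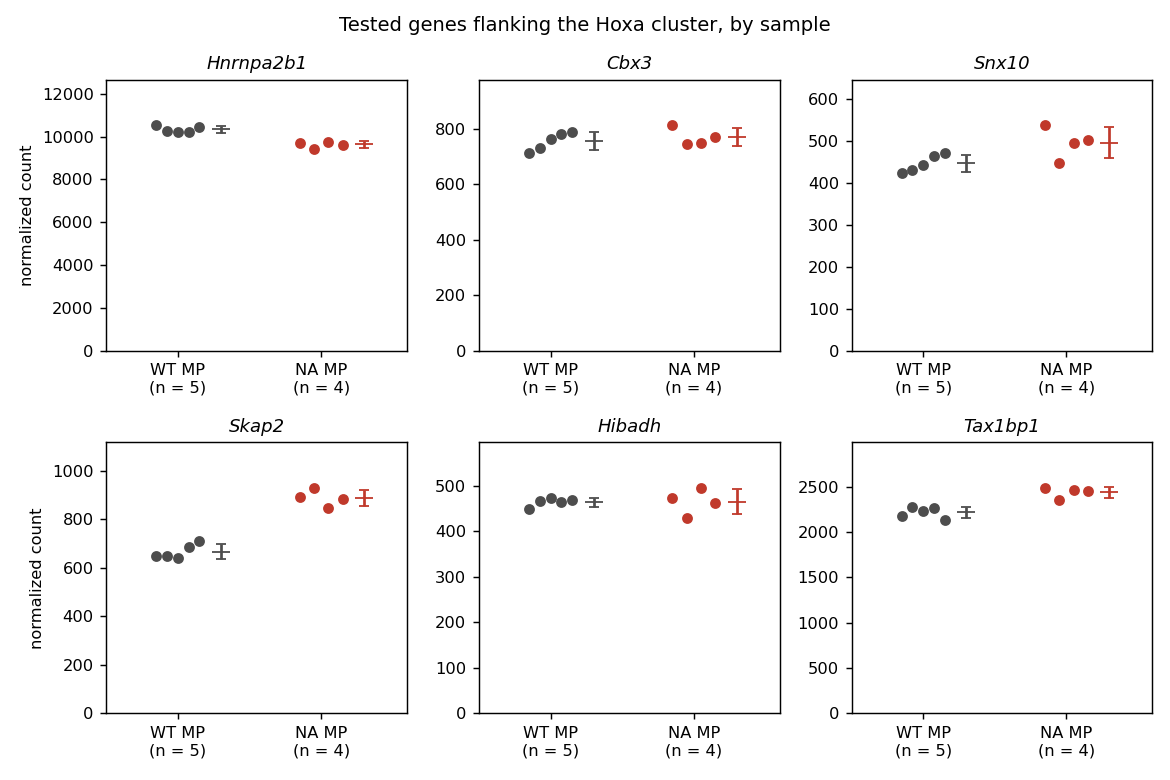
Normalised counts (y axes, linear, from 0) of the 6 flanking genes that passed the expression filter, in 5 WT MP (grey) and 4 NA MP (red) samples, with bars for the mean and SD. The 4 NA MP samples of Skap2 (846 to 931) lay above all 5 WT MP samples (639 to 711), while for Cbx3 and Hibadh the groups overlapped.

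On its side, Skap2 was the tested gene nearest to the cluster. It encodes a cytoplasmic adaptor of Src-family kinases that acts in integrin signalling of myeloid cells. Its normalised counts were 891, 931, 846 and 885 in the 4 NA MP samples and 649, 649, 639, 686 and 711 in the 5 WT MP samples. The groups did not overlap, and the lowest NA MP sample stood above the highest WT MP sample. The means were 888 ± 34.5 (SD, n = 4) and 667 ± 30.7 (SD, n = 5), a log2 fold change of 0.41 ± 0.042 (SE) with a 95% interval from 0.33 to 0.50. That interval lay above those of the other 5 tested genes. Of all tested genes, 12.9% had a larger log2 fold change in either direction. Under the 21 alternatives its log2 fold change ran from 0.39 to 0.52.

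Snx10 encodes a sorting nexin of endosomes that is needed for acid secretion by osteoclasts. NA MP samples held 538, 447, 495 and 502 normalised counts and WT MP samples 424, 430, 442, 463 and 472. The second NA MP sample lay inside the WT MP range, and the other NA MP samples lay above it. The log2 fold change was 0.15 ± 0.052, with an interval from 0.042 to 0.25. With offsets for GC content and length it was 0.24. Snx10 no longer passed the threshold with library size scaling (0.13), with DESeq2 (0.14), or without NA MP replicate 1 (0.11), NA MP replicate 4 (0.14), WT MP replicate 1 (0.13) or WT MP replicate 2 (0.13).

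Hnrnpa2b1, an RNA-binding protein of splicing and RNA transport, was the most abundant of the 10 genes. Its normalised counts were 9718, 9435, 9756 and 9632 in NA MPs and 10548, 10255, 10230, 10222 and 10456 in WT MPs. All NA MP samples stood below all WT MP samples. The spread was small, with SDs of 1.49% and 1.45% of the mean where counting alone gives 1.03% and 0.969%. The log2 fold change was -0.10 ± 0.023, with an interval from -0.15 to -0.055. With offsets for GC content and length it was -0.024 and did not pass the threshold. The exons of the 6 tested genes held 40.7% to 43.5% GC, below the median of 50.1% over all tested genes.

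Cbx3 encodes HP1 gamma, a chromatin protein that binds methylated histone H3 lysine 9, and starts in the opposite direction from Hnrnpa2b1 beside the promoter shown above. Its normalised counts were 815, 747, 748 and 772 in NA MPs and 712, 733, 765, 782 and 790 in WT MPs. The groups overlapped, with only the first NA MP sample above all WT MP samples. The log2 fold change was 0.024 ± 0.042, with an interval from -0.06 to 0.11, and the difference between Cbx3 and Hnrnpa2b1 was not tested. Without NA MP replicate 1 the value was -0.0015, and with offsets for GC content and length it was 0.097 and passed the threshold. Of 8 annotated Cbx3 pseudogenes 5 were in the table, with 123.0 reads in all against 6906 for Cbx3. All 10 flanking genes had whole read numbers in all 9 libraries, to within 0.01 reads or a relative error of rounding, so no read was visibly shared out between them and other genes.

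On the other side, Hibadh was the nearest tested gene. It encodes the mitochondrial 3-hydroxyisobutyrate dehydrogenase of valine breakdown. Its normalised counts were 473, 430, 496 and 462 in NA MPs and 448, 466, 473, 464 and 469 in WT MPs, so that the WT MP samples fell inside the range of the NA MP samples. The log2 fold change was 0.00037 ± 0.05, with an interval from -0.10 to 0.10. With offsets for GC content and length it was 0.099. Its sign turned under 8 of 21 alternatives, among them the fits without NA MP replicate 1 (-0.0076), NA MP replicate 3 (-0.03) or WT MP replicate 1 (-0.012). Of all tested genes, 99.8% had a larger log2 fold change in either direction.

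Tax1bp1 encodes a selective autophagy receptor that also works with the ubiquitin-editing enzyme A20 to restrain NF-kB signalling. NA MP samples held 2491, 2351, 2466 and 2449 normalised counts and WT MP samples 2179, 2281, 2234, 2269 and 2131. The groups did not overlap, although the second NA MP sample stood close to the second WT MP sample. The log2 fold change was 0.14 ± 0.03, with an interval from 0.076 to 0.20, and it was 0.23 with offsets for GC content and length. Groups did not overlap for 3 of the 6 tested genes, Skap2 and Tax1bp1 with NA MPs higher and Hnrnpa2b1 with NA MPs lower, where this held for 26.4% of all tested genes (14.2% higher and 12.2% lower). Tax1bp1 overlaps an annotated transcript on the other strand that is not in the table, and the library kit does not mark strand.

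The remaining 4 genes stayed under the filter, and all 4 were at or near the limit of detection in both groups. Nfe2l3 encodes a CNC transcription factor that binds DNA with small Maf proteins. It had 5, 2, 2 and 4 reads in the NA MP libraries and 2, 1, 2, 1 and 1 in the WT MP libraries. Its 13 and 7 reads gave a ratio of 2.44 after scaling, with an exact counting interval from 0.906 to 7.24, so a difference was not detectable at this depth. Jazf1, a zinc finger protein of the NuA4/TIP60 acetyltransferase complex, had 3, 3, 0 and 4 reads in NA MPs and 1, 2, 3, 3 and 1 in WT MPs. The 10 reads of each group gave a ratio of 1.32, with an interval from 0.492 to 3.52. The Jazf1 promoter was the most CG-rich of those shown above.

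Halr1, a non-coding RNA described near the Hoxa cluster in embryonic stem cells, and Evx1, a homeodomain factor of the even-skipped family, had 0 reads in each of the 9 libraries. They are the genes nearest to the cluster on either side. A count of 0 allows up to 3 reads per library, or 0.374 to 0.543 CPM, and covers counting error only. No fold change is given for these genes.

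**Figure D2:**
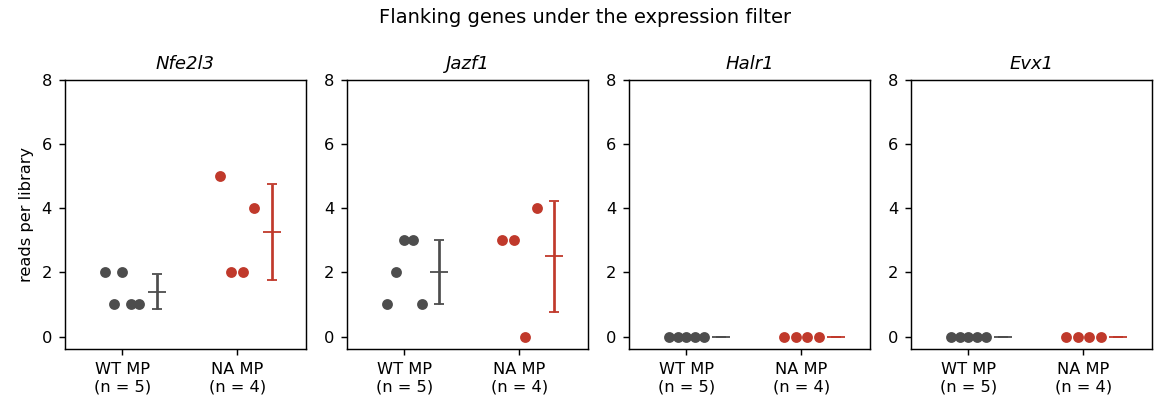
Reads per library (y axes, linear) of the 4 flanking genes under the expression filter, in 5 WT MP (grey) and 4 NA MP (red) libraries, with bars for the mean and SD. Nfe2l3 and Jazf1 had 0 to 5 reads per library with overlapping groups, and Halr1 and Evx1 had 0 in all 9.

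Expression levels per kilobase of exon placed the 6 tested genes in the same order in both groups. In WT MPs they were 236 ± 3.42 CPM per kb for Hnrnpa2b1, 33.4 ± 0.951 for Tax1bp1, 19.0 ± 0.825 for Cbx3, 8.82 ± 0.406 for Skap2, 7.21 ± 0.332 for Snx10 and 6.85 ± 0.141 for Hibadh (SD, n = 5). In NA MPs the same levels were 220 ± 3.26, 36.7 ± 0.925, 19.3 ± 0.804, 11.7 ± 0.457, 8.0 ± 0.607 and 6.86 ± 0.402 (SD, n = 4). In WT MPs the levels of Snx10 and Hibadh lay within their spread of each other, and all other neighbours in the order were further apart than their SDs. Nfe2l3 and Jazf1 lay far below, at 0.172 ± 0.0929 and 0.148 ± 0.0995 CPM per kb in NA MPs and 0.0706 ± 0.0325 and 0.116 ± 0.0606 in WT MPs. Exon lengths were those of all annotated exons together, which understates the level of genes that use few of them.

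The flanking genes stood apart from the cluster in the size of their change. Of 11 Hoxa genes 7 were tested and all 7 rose, with log2 fold changes from 1.69 to 3.96 and a median of 2.3. The value of 3.96 was that of Hoxa10, whose counts may hold reads of the fusion. The next highest was 2.45, that of Hoxa6. Hoxa9 went from 161 ± 13.8 to 663 ± 45.7 normalised counts (2.03 ± 0.061, adjusted p = 5.87e-33, edgeR). Hoxa13 had 0 reads in both groups and was not tested. The nearest tested flanking genes thus had log2 fold changes of 0.41 (Skap2) and 0.00037 (Hibadh).

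**Figure D3:**
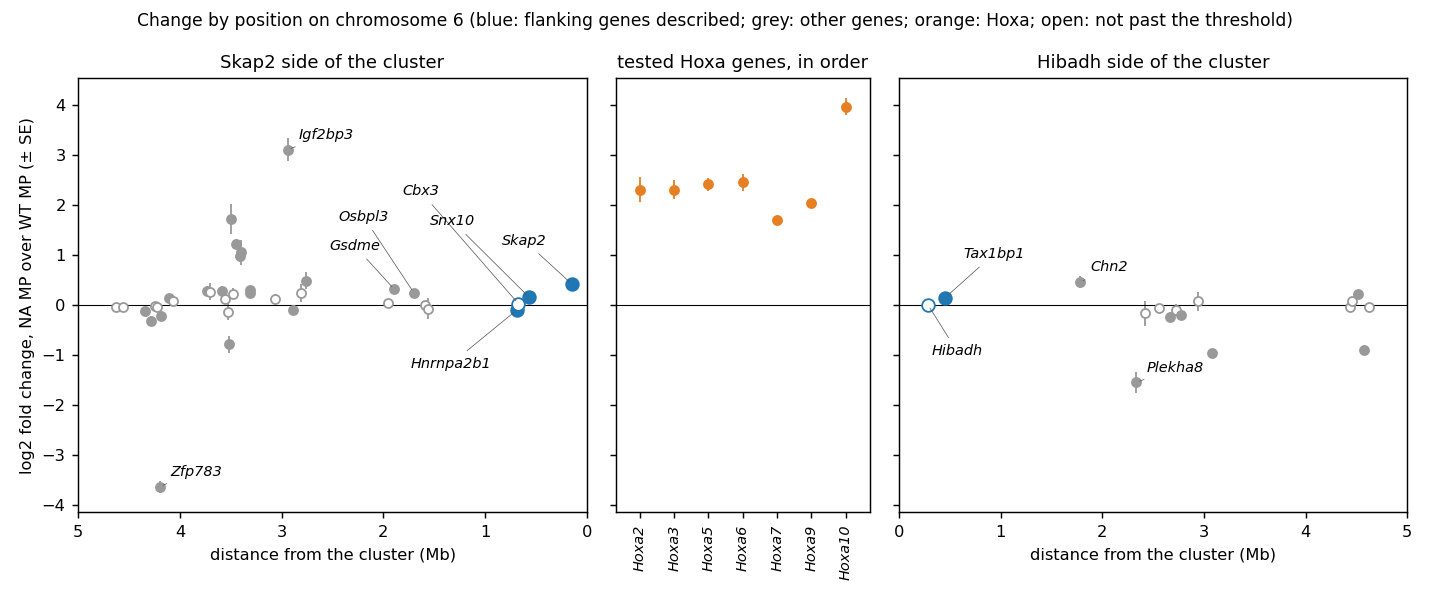
Log2 fold change of NA MP over WT MP with its SE (y axis) against distance from the Hoxa cluster in Mb (x axes, outer panels) for flanking genes (blue), other genes (grey) and the 7 tested Hoxa genes in order (orange, middle panel), filled where the threshold was passed. The flanking genes lay between -0.10 and 0.41, the Hoxa genes between 1.69 and 3.96. The highest was Hoxa10, whose counts may hold reads of the fusion, and the next was Hoxa6 at 2.45.

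Other genes of the neighbourhood were taken whole from the annotation. Up to 2 Mb from the cluster the table held 26 genes that were neither flanking genes nor Hoxa genes, of which 13 had reads and 6 were tested. Of these 6, 3 rose and none fell, where 17.9% and 16.3% of all tested genes did, and 0 of the 6 lay within 1 Mb. One gene under the filter, named after its values were seen, stood further apart than these. Cpvl, which encodes a carboxypeptidase and lies at 1612.4 kb on the Hibadh side, had 17, 12, 8 and 16 reads in the NA MP libraries and 1, 1, 1, 0 and 0 in the WT MP libraries, so its groups did not overlap, and it was not tested. Chn2, which encodes a GTPase-activating protein for Rac, rose from 64.1 ± 6.86 to 88.5 ± 8.34 (log2 fold change 0.45 ± 0.12, adjusted p = 0.00173, edgeR) at 1778.7 kb on the Hibadh side. Gsdme, a pore-forming gasdermin, rose from 115 ± 8.69 to 142 ± 16.6 (0.31 ± 0.092, adjusted p = 0.00667, edgeR) at 1891.7 kb on the Skap2 side. Osbpl3, a lipid-binding protein, rose from 227 ± 16.3 to 268 ± 31.3 (0.24 ± 0.071, adjusted p = 0.0056, edgeR) at 1699.4 kb. Gsdme lost its call with DESeq2 (0.30, adjusted p = 0.0569) and without NA MP replicate 3 (0.24, edgeR adjusted p = 0.0546), and Osbpl3 with DESeq2 (0.24, adjusted p = 0.0506).

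Chn2, Gsdme and Osbpl3 are each more than 1.6 Mb from the cluster, beyond all flanking genes, and their log2 fold changes were of the size of those of Skap2 and Snx10. The log2 fold changes of the tested flanking genes followed no order by distance, at 0.41 at 143.0 kb, 0.00037 at 285.3 kb, 0.14 at 452.8 kb, 0.15 at 564.9 kb, 0.024 at 671.9 kb and -0.10 at 685.7 kb. Between 2 and 5 Mb from the cluster, 41 of 93 genes were tested, and 56.1% of these passed the threshold, against 34.1% of all tested genes. Of the 41, 12 rose and 11 fell, where 17.9% and 16.3% of all tested genes did. Another difference lay in size, as 6 changed more than 2-fold, which 4.14% of all tested genes did. The differences between these shares were not tested. The 6 genes ran from Zfp783 at -3.63 to Igf2bp3 at 3.10, both named after their values were seen. On chromosome 6 as a whole, without the flanking and Hoxa genes but with the neighbours just described, 207 of 555 tested genes passed the threshold. That share was 37.3%, against 34.1% of all tested genes, and the median log2 fold change was -0.013.

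The relatives and partners of the flanking genes, listed by textbook role, were described by counts alone and no list was tested as a whole. Each count stands beside the 34.1% of all tested genes that passed the threshold, 17.9% higher and 16.3% lower in NA MPs. Of the 2 other HP1 proteins beside Cbx3, Cbx5 fell (log2 fold change -0.24 ± 0.031, adjusted p = 8.26e-09, edgeR) and Cbx1 did not pass. Of 20 hnRNP proteins beside Hnrnpa2b1, 2 rose and 6 fell. Hnrnpll, a splicing factor of lymphocytes, fell by 0.29 on the log2 scale (adjusted p = 8.12e-08, edgeR), and Hnrnpdl rose by 0.15 (adjusted p = 0.000239, edgeR).

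Among 8 tested partners of Skap adaptors, 6 rose and 1 fell, where 17.9% of all tested genes rose and 16.3% fell. Fyn, a Src-family kinase, rose by 0.61 ± 0.069 on the log2 scale (adjusted p = 2.01e-10, edgeR), and Fgr, another, by 0.73 ± 0.26 (adjusted p = 0.0242, edgeR). Fgr had few reads and lost its call with DESeq2 (0.74) and without NA MP replicate 2 (0.62), NA MP replicate 3 (0.70) or WT MP replicate 1 (0.53). Skap2 itself changed by 0.41.

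Of 27 tested sorting nexins beside Snx10, 5 rose and 6 fell. Snx25 fell by 0.37 (adjusted p = 0.00552, edgeR) and Snx7 by 0.51 (adjusted p = 0.0434, edgeR), though Snx7 lost its call in 12 of 21 alternatives, among them each fit without NA MP replicate 2, 3 or 4 or WT MP replicate 1, 4 or 5 (-0.54 to -0.37). Of 9 other genes of valine breakdown beside Hibadh, Bckdha rose (0.22, adjusted p = 4.83e-05, edgeR), Dld fell (-0.19, adjusted p = 0.000477, edgeR) and 7 did not pass. Of 5 autophagy receptors beside Tax1bp1, 2 rose and 1 fell. Optn fell by 0.62 (adjusted p = 5.57e-11, edgeR), whereas Calcoco1 rose by 0.48 (adjusted p = 1.51e-07, edgeR).

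Relatives of the genes under the filter were described in the same way. Of 8 CNC and small Maf factors beside Nfe2l3, 4 rose and 1 fell. Bach2, a repressor of this family that acts in B cells, rose from 40.5 ± 8.95 to 97.3 ± 25.1 normalised counts (1.25 ± 0.16, adjusted p = 2.8e-07, edgeR), in samples in which the pro-B and pre-B markers were also higher. Bach1 rose by 0.27 (adjusted p = 3.11e-05, edgeR). Of 17 NuA4/TIP60 subunits beside Jazf1, 3 rose and 3 fell. Kat5, the acetyltransferase, rose by 0.16 (adjusted p = 0.0347, edgeR) and Mrgbp by 0.15 (adjusted p = 0.0428, edgeR), but Kat5 lost its call in 11 and Mrgbp in 14 of 21 alternatives. For Kat5 these included each fit without NA MP replicate 1 or 2 or WT MP replicate 1, 2 or 5 (0.12 to 0.16), and for Mrgbp each fit without NA MP replicate 1, 2, 3 or 4 or WT MP replicate 3, 4 or 5 (0.14 to 0.16). Evx2, the relative of Evx1, had 0 reads.

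**Figure D4:**
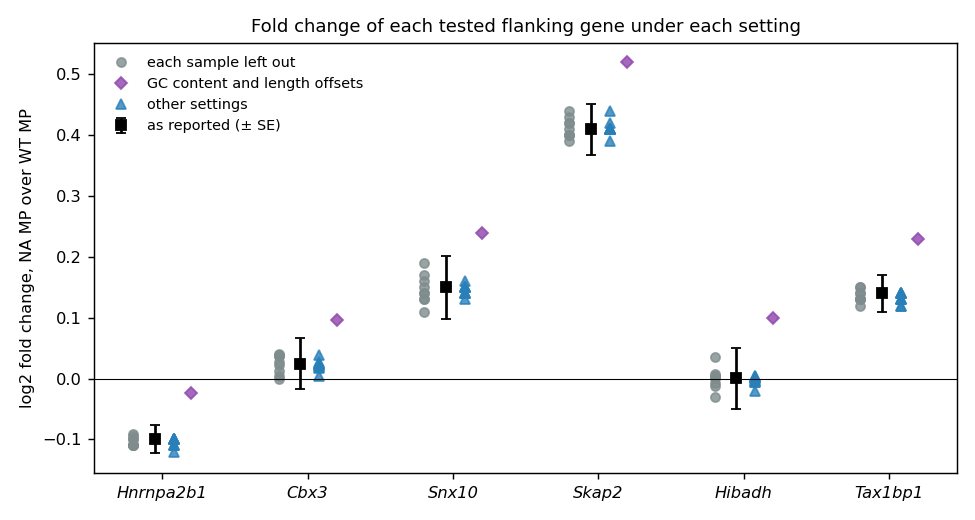
Log2 fold change of NA MP over WT MP (y axis) of the 6 tested flanking genes as reported (black squares, with SE), with each sample left out (grey circles), with offsets for GC content and length (purple diamonds) and under the other settings (blue triangles). Skap2 kept values from 0.39 to 0.52, and Hibadh ran from -0.03 to 0.099 on both sides of 0.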

How the data were processed

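PolyA RNA of 9 MP samples was sequenced, and per the labels reads were processed with bcl2fastq, RSEM and DESeq2 on build mm10, with versions not given in the sources used here. The authors deposited 1 table named as raw RSEM expected counts. Its values were whole reads times 1 constant per sample (0.8266 to 1.2 per read), so each column was divided by that constant, which gave 97.4% to 97.7% whole values to within 0.01 reads or rounding. The recovered expected counts were rounded, which replaces the raw counts foreseen in the design.

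Gene names and positions came from GENCODE M21 (GRCm38), which matched 32916 of 37980 gene IDs, and promoters from RefSeq (GRCm38.p6). Genes were filtered with filterByExpr (minimum count 10), scaled by TMM and tested with edgeR 4.0.16 (quasi-likelihood, robust, R 4.3.3) on group alone, NA MP against WT MP, with Benjamini-Hochberg adjustment over 11953 genes and a threshold of 0.05. Normalised counts are reads scaled to the mean effective library size. DESeq2 1.42.0 and limma 3.58.1 served as alternatives, along with other scalings, filters and offsets and each sample left out. The fit was tested on simulated counts. The coefficient of variation between replicates beyond counting error, as edgeR estimates it, was 3.49%.

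Replicates with the same number did not deviate together (correlations -0.0193 to 0.0526), so no pairing was used. Named genes were all 10 flanking genes, Hoxa9, Hoxa10 and Hoxa13 of the cluster (1 further reference gene is not reported here), up to 5 called genes within 2 Mb, up to 2 called genes per family list with the largest change, and Nup98. The flanking genes and all lists were chosen with earlier results of these data known. Read intervals cover counting error only.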

Additional observations from a re-analysis of the deposited data

Results flagged for a closer look

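In 30 groups of 4 or 5 samples, 2 had a sample far from the others by Dixon's criterion, where chance flags about 1 in 20 groups, or 1.5 of 30. Jazf1 had 0 normalised counts in the third NA MP sample, against 3.04 to 3.62 in the other NA MP samples, a gap of 3 or 4 reads. Mpp6, a scaffold protein gene 1956.7 kb from the cluster that did not pass the threshold, had 547 normalised counts in the fifth WT MP sample against 586 to 601 in the other WT MP samples.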

How the results depend on the processing

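Under 21 alternatives the number of flanking genes past the threshold was 3 or 4, but these were not always the same genes. With offsets for GC content and length Hnrnpa2b1 lost its call and Cbx3 gained one. Snx10 lost its call in 7 of the 21, among them a stricter threshold of 0.01. The number of all tested genes past the threshold was 2886 to 4306, with 3054 by DESeq2 and 3638 to 3959 with each sample left out. With a window of 1 Mb, 0 other genes were tested. Hibadh was 0.099 with offsets for GC content and length, turned negative with RLE factors (-0.0018), library size only (-0.021), DESeq2 (-0.0049), no filter (-0.0055) and limma on log2 of the deposited values plus 1 (-0.0046), and ran from -0.03 to 0.036 with each sample left out. Cbx3 ran from -0.0015 to 0.04 with each sample left out. Cycs, a gene 1589.1 kb from the cluster that did not pass the threshold, ran from -0.015 to 0.0094 with each sample left out and was 0.049 with offsets for GC content and length. The cause of these turns was not tested. The fits on the deposited values, by edgeR and by limma, were chosen after seeing the data.

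With the replicate number as a block, which drops the fifth WT MP sample, 3724 genes passed the threshold, 4 flanking genes among them, and Snx7 (-0.38), Kat5 (0.14) and Mrgbp (0.14) lost their calls while no other named gene did. Of the 4 NA MP samples, 0 correlated best with the WT MP sample of their own number. At 5557718 to 8106140 reads per library, genes such as Nfe2l3 and Jazf1 were too sparse to compare.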
